A study of Gallus gallus with 24 samples.

Results

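The genes described here encode proteins that take part in calcium cycling between the sarcoplasmic reticulum, the cytosol and the outside of the cell. They are RYR2, RYR3, ATP2A2, PLN, SLC8A1, CASQ2, TRDN, ITPR1, ITPR2 and ITPR3. All 10 were in the expression table, among 12422 genes with a symbol. They are selected by symbol alone, and earlier results of these data were known when they were selected.

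In a heart muscle cell, the sarcoplasmic reticulum stores calcium and releases it through ryanodine receptors at each beat. The SERCA pump returns calcium to the store and the sodium-calcium exchanger removes it across the plasma membrane. In pacemaker cells of the sinoatrial node (SAN), spontaneous release from this store and the exchanger current that follows it are known to help bring the membrane to threshold. Inositol trisphosphate (IP3) receptors form another release pathway, which opens when phospholipase C is activated.

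Bulk RNA was sequenced from chick SAN and atria at Hamburger-Hamilton (HH) stage 30. Each tissue was taken freshly isolated (t0), after 14 hours of culture with vehicle, which was water, and after 14 hours of culture with 0.25 ug/ml CN03, an activator of the small GTPase RhoA. Each of the 6 groups held 4 biological replicates, and each of these pooled 5 tissue preparations, so that 24 libraries were compared. Both cultured groups were kept in the same serum-containing medium, and no genotype, strain or sex is given for the embryos. Values are the authors' normalized log2 expression values, and a difference of 1 is a 2-fold difference. The number of reads behind them is unknown. In whole tissue, fewer cells of a type and less RNA per cell cannot be told apart.

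The tissue labels were first checked against marker genes. SHOX2, a transcription factor of the SAN, lay between 6.77 and 8.26 in fresh SAN and between 0.45 and 2.06 in fresh atria. HCN4, a pacemaker channel, had group means of 6.17 and 2.70, and NPPA, an atrial natriuretic peptide gene, had means of 5.75 and 10.50. The RhoA-responsive gene ANKRD1 went from a mean of 4.61 with vehicle to 11.53 with CN03 in SAN, and from 1.99 to 12.21 in atria. The fresh groups thus followed their tissue labels, and ANKRD1 followed the CN03 label. SHOX2 also kept the tissues apart with vehicle (means of 8.27 in SAN and 2.35 in atria) and with CN03 (6.31 and 2.18). With CN03, the means of HCN4, ISL1, NPPA and BMP10 kept the direction they had in fresh tissue. TBX3, another transcription factor of the SAN, did not. Its means in SAN and atria were 6.04 and 3.67 in fresh tissue and 5.66 and 5.85 with CN03. The row with no gene symbol took 17.9% of the linear sum in atria CN03 replicate 2 and 6.58 to 9.38% in the other 23 libraries, and results that change without that library are given with it.

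A gene is called here at an adjusted p under 0.05, from limma with Benjamini-Hochberg adjustment over all 12422 genes. In SAN, CN03 against vehicle called 7 of the 10 genes, 2 higher and 5 lower, where 71.2% of all genes were called, 33.4% higher and 37.8% lower. In atria, 6 of 10 were called, 3 higher and 3 lower, where 72.5% of all genes were called, 35.7% higher and 36.8% lower. Both counts lay near the share of all genes, so the results below concern the individual genes. The median log2 fold change of the 10 genes was -0.40 in SAN and -0.27 in atria, beside -0.06 and -0.01 over all genes.

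**Figure D1:**
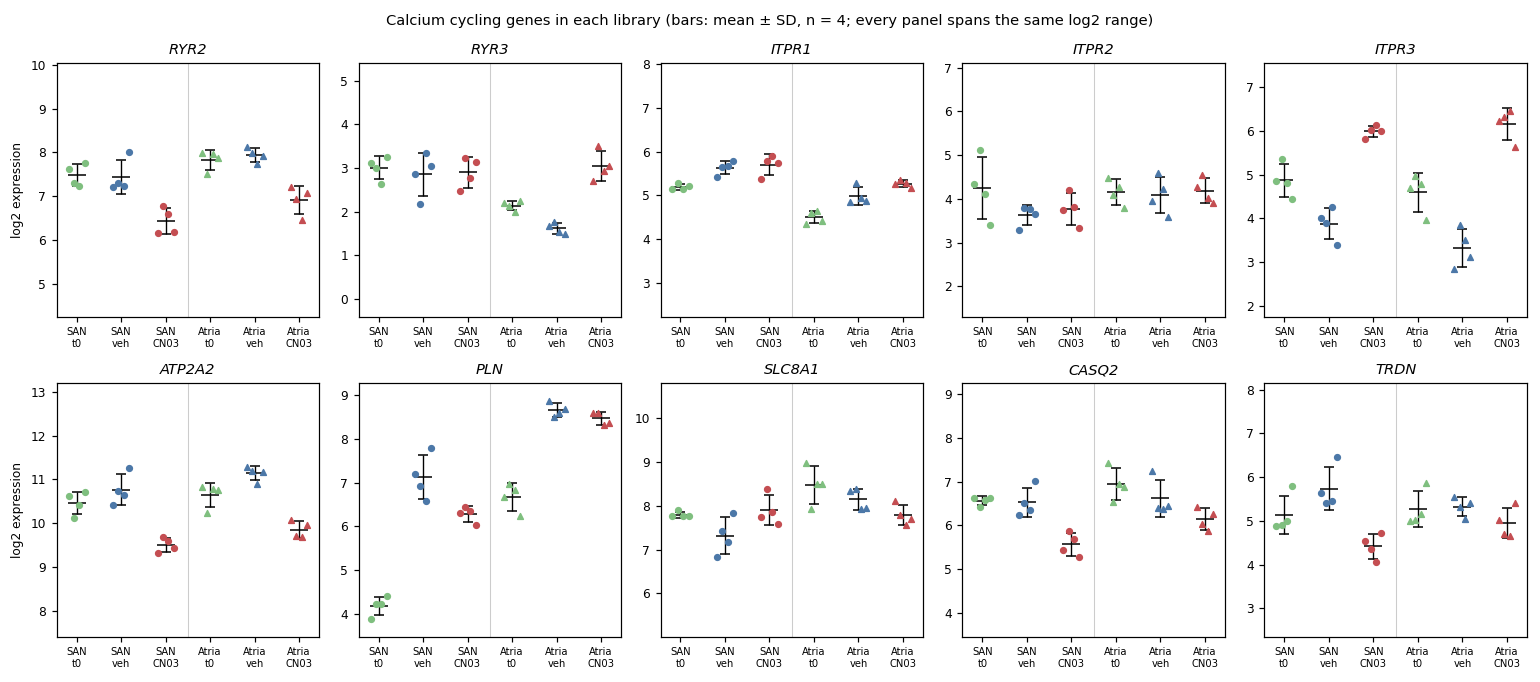
Normalized log2 expression of the 10 genes in each of the 24 libraries (circles SAN, triangles atria), with the mean and SD of each group of 4. RYR2 and ATP2A2 were lower with CN03 than with vehicle in every library of both tissues, ITPR3 was higher, and PLN lay between 3.89 and 4.40 in fresh SAN against 6.23 to 6.97 in fresh atria.

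RYR2 (chr3:36847123-37208224, GRCg7b) encodes the ryanodine receptor of heart muscle, the channel through which the sarcoplasmic reticulum empties. In SAN replicates 1 to 4, its log2 values were 7.63, 7.30, 7.24 and 7.76 at t0, 7.22, 7.30, 7.23 and 8.01 with vehicle, and 6.15, 6.77, 6.60 and 6.19 with CN03. In atria they were 7.98, 7.50, 7.97 and 7.87 at t0, 8.14, 7.99, 7.74 and 7.92 with vehicle, and 7.20, 6.94, 6.45 and 7.07 with CN03. All CN03 libraries lay below all vehicle libraries of their tissue, as 62.2% of all genes did not overlap in SAN and 66.5% in atria. RYR2 was 2.02-fold lower with CN03 in SAN (log2 fold change -1.01, SE 0.182, adjusted p = 3.06e-05) and 2.04-fold lower in atria (log2 fold change -1.03, SE 0.182, adjusted p = 2.33e-05). The fold changes of the tissues differed by 0.02 on the log2 scale, with a 95% interval from -0.51 to 0.55. Culture with vehicle gave log2 differences of -0.04 in SAN and 0.11 in atria, neither past the test. Ordered by group mean, atria with vehicle stood highest and SAN with CN03 lowest, and the only neighbours in that order whose libraries did not overlap were SAN with vehicle and atria with CN03.

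RYR3 (chr5:29657556-29842303) encodes a ryanodine receptor that is best known from brain and smooth muscle. Its log2 values in atria were 2.20, 2.13, 2.00 and 2.23 at t0, 1.68, 1.76, 1.54 and 1.49 with vehicle, and 2.71, 3.51, 2.93 and 3.05 with CN03. In SAN they spanned 2.64 to 3.25 at t0, 2.17 to 3.34 with vehicle and 2.47 to 3.23 with CN03. The 3 atrial groups did not overlap each other, and the 3 SAN groups did. With CN03, RYR3 rose in atria by 1.43 (SE 0.211, adjusted p = 1.92e-06), while in SAN the log2 difference was 0.05 (adjusted p = 0.845). The interaction term for this difference between tissues was -1.38 (SE 0.298, adjusted p = 0.00132), in a comparison in which 3 of the 10 genes and 27.1% of all genes were called. After quantile normalization the SAN difference was 0.49 with an adjusted p of 0.0476, so the call in SAN depended on the scaling. Compared with t0, RYR3 was higher by 0.91 in atria with CN03 (adjusted p = 0.000457). In fresh tissue RYR3 was 1.82-fold higher in SAN than in atria (log2 0.86, SE 0.211, adjusted p = 0.0024). With CN03 this tissue difference was -0.15 (adjusted p = 0.611). RYR3 fell by 0.52 on the log2 scale in atria during vehicle culture (adjusted p = 0.0371). That call was lost on leaving out atria t0 replicate 1, 2 or 4 or atria vehicle replicate 1, 3 or 4, with adjusted p from 0.0525 to 0.0851. It was also lost with a pseudocount of 1 (-0.41, adjusted p = 0.0574).

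CASQ2 (chr1:80504417-80536556) encodes calsequestrin, the calcium-binding protein inside the store. In SAN its log2 values were 6.25, 6.52, 6.35 and 7.01 with vehicle and 5.44, 5.87, 5.70 and 5.27 with CN03, with no overlap. The atrial values were 7.25, 6.41, 6.38 and 6.45 with vehicle and 6.43, 6.03, 5.86 and 6.27 with CN03, where the groups overlapped. CASQ2 fell with CN03 by 0.96 in SAN (SE 0.196, adjusted p = 0.000136) and by 0.47 in atria (adjusted p = 0.0348). The atrial call was lost on leaving out single libraries. The value was -0.26 without atria vehicle replicate 1 (adjusted p = 0.203), -0.43 without CN03 replicate 2 (adjusted p = 0.0783) and -0.38 without CN03 replicate 3 (adjusted p = 0.115). In a fit blocked on the replicate number over all 6 groups, it was called (adjusted p = 0.031). The difference between the tissues was -0.49 (adjusted p = 0.203), and -0.70 without atria vehicle replicate 1 (adjusted p = 0.0422). Vehicle culture gave log2 differences of -0.04 in SAN and -0.33 in atria, neither past the test, but the atrial value was -0.54 without vehicle replicate 1 (adjusted p = 0.015).

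TRDN (chr3:60472401-60680855) encodes triadin, which ties calsequestrin to the ryanodine receptor at the junction with the plasma membrane. Its log2 values in SAN were 4.88, 4.90, 5.01 and 5.79 at t0, 5.64, 5.41, 5.45 and 6.45 with vehicle, and 4.55, 4.35, 4.05 and 4.72 with CN03. The atrial libraries gave 5.56, 5.31, 5.04 and 5.41 with vehicle and 5.03, 4.71, 4.65 and 5.41 with CN03. The SAN groups with vehicle and CN03 were apart, whereas the atrial groups overlapped, and replicate 4 was the highest in 5 of the 6 groups. TRDN fell with CN03 by 1.32 in SAN (SE 0.238, adjusted p = 3.15e-05). In atria the log2 difference was -0.38 (adjusted p = 0.159). In a fit blocked on the replicate number, the same atrial difference passed the test (adjusted p = 0.0145). That block shares its replicate effects over all 6 groups, so it is not a pairing of the atrial pools alone. The difference between the tissues was -0.94 (adjusted p = 0.0405), and the call was lost on leaving out SAN vehicle replicate 4, SAN CN03 replicate 2 or 3, atria vehicle replicate 2, 3 or 4, or atria CN03 replicate 1 or 4, with values from -0.97 to -0.71 and adjusted p from 0.0514 to 0.0979. It was also lost after quantile normalization (-0.89, adjusted p = 0.0602), after median centring (adjusted p = 0.054) and without the mean-variance trend (adjusted p = 0.0545). TRDN rose by 0.59 in SAN during vehicle culture (adjusted p = 0.0409). Without SAN vehicle replicate 4 this was 0.36 (adjusted p = 0.205), and the call was also lost without SAN t0 replicate 1, 2 or 3 or vehicle replicate 1 (adjusted p 0.0525 to 0.112). The same happened without the mean-variance trend (adjusted p = 0.0541) and with only the groups compared (0.0754).

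ATP2A2 (chr15:5319218-5360599) encodes SERCA2, the pump that refills the store. Its log2 values in SAN were 10.61, 10.13, 10.42 and 10.70 at t0, 10.42, 10.74, 10.64 and 11.26 with vehicle, and 9.32, 9.69, 9.59 and 9.43 with CN03. In atria they were 10.82, 10.23, 10.77 and 10.76 at t0, 11.28, 11.20, 10.91 and 11.18 with vehicle, and 10.07, 9.70, 9.68 and 9.95 with CN03. In both tissues every CN03 library lay below every vehicle and t0 library, and CN03 and t0 libraries did not overlap for 65.7% of all genes in SAN and 70% in atria. ATP2A2 was 2.39-fold lower with CN03 than with vehicle in SAN (log2 -1.26, SE 0.163, adjusted p = 3.30e-07) and 2.45-fold lower in atria (log2 -1.29, SE 0.163, adjusted p = 1.88e-07). The difference between the tissues was 0.04, with a 95% interval from -0.44 to 0.51. In vehicle culture, ATP2A2 rose by 0.50 in atria (adjusted p = 0.0115). This became 0.36 without t0 replicate 2 (adjusted p = 0.0656) and 0.37 after quantile normalization (adjusted p = 0.0533). The SAN difference was 0.30 (adjusted p = 0.129), or 0.42 without vehicle replicate 1 (adjusted p = 0.0448). Fresh SAN and atria differed by -0.18 (adjusted p = 0.415), with a 95% interval from -0.52 to 0.16.

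PLN (chr3:62579083-62593039) encodes phospholamban, a small membrane protein that slows SERCA2 until it is phosphorylated. In SAN its log2 values were 3.89, 4.21, 4.21 and 4.40 at t0, 7.19, 6.92, 6.59 and 7.79 with vehicle, and 6.30, 6.45, 6.35 and 6.03 with CN03. In atria they were 6.67, 6.97, 6.83 and 6.23 at t0, 8.86, 8.50, 8.60 and 8.68 with vehicle, and 8.60, 8.60, 8.33 and 8.36 with CN03. PLN had the widest range of group means among the 10 genes, 4.48 on the log2 scale, and fresh SAN stood apart below every other group.

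In fresh tissue, 4 of the 10 genes were called between SAN and atria, 2 higher and 2 lower in SAN, where 35.9% of all genes were called, 18.7% higher and 17.1% lower. PLN was 5.63-fold lower in SAN (log2 -2.49, SE 0.181, adjusted p = 2.18e-10), with no overlap, as for 34.3% of all genes. Cardiomyocyte markers differed in the same direction, with all 11 in the table lower in fresh SAN and a median log2 difference of -1.06. Their mean per library was 8.42 to 8.90 in fresh SAN and 9.78 to 10.24 in fresh atria. Relative to that mean, PLN was still lower in SAN, by 1.15 without overlap. Most of these markers are sarcomere genes, and the authors describe pacemaker cells as having few myofibrils. NKX2-5, also among them, had means of 4.14 in fresh SAN and 7.18 in fresh atria. The marker mean may thus be lower in SAN at an equal share of myocytes, and values relative to it are not values per myocyte. During vehicle culture, 5 of 10 genes were called in SAN, 3 higher and 2 lower, where 51.4% of all genes were called, 25.3% higher and 26.1% lower. In atria 5 of 10 were called, again 3 higher and 2 lower, where 59% of all genes were called, 29.2% higher and 29.8% lower. PLN rose 7.69-fold in SAN (log2 2.94, SE 0.181, adjusted p = 8.09e-12) and 3.96-fold in atria (log2 1.99, SE 0.181, adjusted p = 2.78e-09). Its t0 and vehicle libraries did not overlap in either tissue, which held for 45.4% of all genes in SAN and 54% in atria. The rise was larger in SAN, by 0.96 (SE 0.256, adjusted p = 0.0146), and PLN was the only gene of the 10 called for this difference, where 13% of all genes were called. With CN03, PLN fell by 0.84 in SAN (SE 0.181, adjusted p = 0.000247), while in atria the difference was -0.19 (adjusted p = 0.352) and reached -0.49 after quantile normalization (adjusted p = 0.0195). The difference between the tissues did not pass the test (-0.65, adjusted p = 0.0628), except without SAN vehicle replicate 3 (-0.83, adjusted p = 0.0128). Compared with t0, CN03-treated SAN still had 4.29-fold more PLN (log2 2.10, adjusted p = 3.24e-10). For this comparison 7 of 10 genes and 74.7% of all genes were called.

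**Figure D2:**
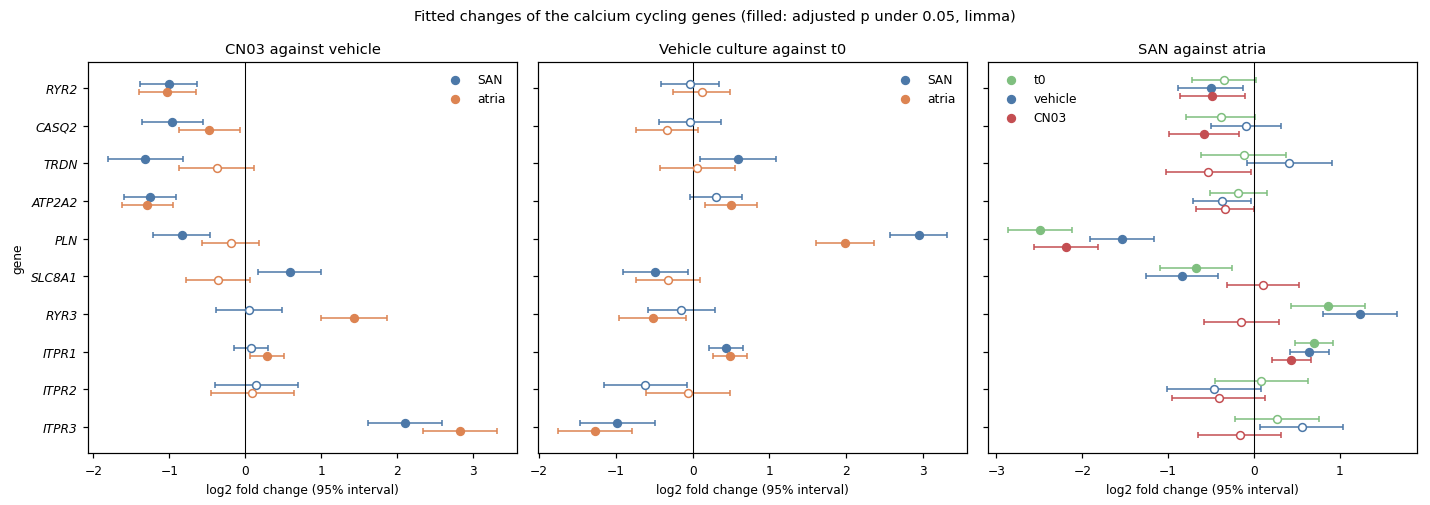
Log2 fold changes of the 10 genes with 95% intervals from limma, for CN03 against vehicle (left), vehicle culture against t0 (middle) and SAN against atria (right), with filled points for an adjusted p under 0.05. RYR2 and ATP2A2 changed by -1.01 to -1.29 with CN03 in both tissues, PLN rose by 2.94 and 1.99 in culture, and ITPR3 rose by 2.11 and 2.83 with CN03.

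SLC8A1 (chr3:15974340-16091855) encodes NCX1, the sodium-calcium exchanger of the plasma membrane. In SAN its log2 values were 7.77, 7.90, 7.76 and 7.77 at t0, 6.82, 7.43, 7.18 and 7.83 with vehicle, and 7.74, 8.39, 7.87 and 7.59 with CN03. In atria they were 8.99, 7.93, 8.50 and 8.50 at t0, 8.34, 8.38, 7.93 and 7.96 with vehicle, and 8.11, 7.79, 7.55 and 7.71 with CN03. The vehicle and CN03 libraries overlapped in both tissues, and every pair of neighbouring group means had overlapping libraries. Compared with t0, SAN with CN03 differed by only 0.10 in SLC8A1 (adjusted p = 0.676). Compared with vehicle, SLC8A1 was higher with CN03 in SAN by 0.58 (SE 0.202, adjusted p = 0.0133). This call was lost without SAN CN03 replicate 2 or SAN vehicle replicate 1 (log2 0.42 in both, adjusted p = 0.0714 and 0.0716) and after quantile normalization (0.36, adjusted p = 0.106). In atria the difference was -0.36 (adjusted p = 0.115), and -0.68 after quantile normalization (adjusted p = 0.00326). With only the groups compared, the same atrial difference of -0.36 was called too (adjusted p = 0.0346). The 2 tissues differed by 0.94 (SE 0.286, adjusted p = 0.0168). In fresh tissue SLC8A1 was 1.60-fold lower in SAN (log2 -0.68, SE 0.202, adjusted p = 0.0111), or -0.51 without atria t0 replicate 1 (adjusted p = 0.0591). Relative to the mean of the cardiomyocyte markers in the same library, it was instead higher in fresh SAN, by 0.67 without overlap. The limit given above for that mean, mostly of sarcomere genes, holds here too. SLC8A1 fell by 0.49 in SAN during vehicle culture (adjusted p = 0.0485), but this call was lost without any of the 4 t0 replicates or without vehicle replicate 1, 2 or 3, with values from -0.52 to -0.32 and adjusted p up to 0.201. It was also lost after median centring (0.0514), without the mean-variance trend (0.064) and with the replicate block (0.0544). The atrial difference was -0.33 (adjusted p = 0.171), or -0.51 without t0 replicate 2 (adjusted p = 0.0325).

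ITPR3 (chr26:4660512-4700499) encodes the type 3 IP3 receptor. In SAN its log2 values were 4.85, 5.35, 4.80 and 4.44 at t0, 4.00, 3.89, 4.25 and 3.39 with vehicle, and 5.82, 6.01, 6.12 and 5.99 with CN03. In atria they were 4.68, 4.96, 4.79 and 3.95 at t0, 2.83, 3.84, 3.51 and 3.11 with vehicle, and 6.22, 6.30, 6.46 and 5.63 with CN03. In both tissues vehicle libraries were the lowest and CN03 libraries the highest, with no overlap among the 3 conditions. ITPR3 fell during vehicle culture by 0.98 in SAN (SE 0.235, adjusted p = 0.0013) and by 1.27 in atria (adjusted p = 6.71e-05). With CN03 it was 4.31-fold higher than with vehicle in SAN (log2 2.11, SE 0.235, adjusted p = 3.26e-08) and 7.11-fold higher in atria (log2 2.83, SE 0.235, adjusted p = 1.84e-10). Since both comparisons share the vehicle libraries, CN03 was also set against t0, where ITPR3 was 2.18-fold higher in SAN (log2 1.12, adjusted p = 0.000162) and 2.94-fold higher in atria (log2 1.56, adjusted p = 2.46e-06). In that atrial comparison, 8 of 10 genes and 75.5% of all genes were called. The CN03 response was -0.72 in SAN relative to atria (95% interval from -1.41 to -0.04, adjusted p = 0.112), and this difference was called without atria CN03 replicate 4 (-0.90, adjusted p = 0.0479) or atria vehicle replicate 2 (-0.90, adjusted p = 0.0488).

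ITPR1 (chr12:18584390-18735101), the type 1 IP3 receptor gene, moved less. Its log2 values in SAN were 5.14 to 5.29 at t0, 5.43 to 5.79 with vehicle and 5.36 to 5.91 with CN03. The atrial ranges were 4.34 to 4.63 at t0, 4.86 to 5.28 with vehicle and 5.18 to 5.36 with CN03. The gene was higher in SAN at t0 (log2 0.70, SE 0.108, adjusted p = 1.74e-05), and it rose in vehicle culture by 0.43 in SAN (adjusted p = 0.00195) and by 0.49 in atria (adjusted p = 0.000502), each without overlap. With CN03 the difference was 0.07 in SAN (adjusted p = 0.564) and 0.28 in atria (adjusted p = 0.0227). The atrial call was lost after quantile normalization (0.21, adjusted p = 0.0753) and without atria CN03 replicate 2 or atria vehicle replicate 1, 3 or 4 (0.24 to 0.27, adjusted p 0.0521 to 0.0715). In the fit blocked on the replicate number over all 6 groups, the adjusted p was 0.00596.

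ITPR2 (chr1:67739366-68004297), the type 2 IP3 receptor gene, is the main IP3 receptor of atrial and ventricular myocytes in mammals. It was called in no comparison in the fit used here. Its group means spanned 0.62 on the log2 scale, and the libraries of all neighbouring groups overlapped, from 3.41 to 5.12 in fresh SAN alone. In SAN, vehicle culture gave a log2 difference of -0.62 (SE 0.264, adjusted p = 0.0547), which was called without t0 replicate 4 (-0.89, adjusted p = 0.0044) and after quantile normalization (-0.66, adjusted p = 0.0438).

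After culture, the tissues were compared again. With vehicle, 5 of the 10 genes were called between SAN and atria, where 42.6% of all genes were called. RYR3 (log2 1.23, adjusted p = 4.94e-05) and ITPR1 (0.65, adjusted p = 3.96e-05) were higher in SAN, and PLN (-1.54, adjusted p = 3.69e-07), SLC8A1 (-0.84, adjusted p = 0.00182) and RYR2 (-0.50, adjusted p = 0.029) were lower. All 11 cardiomyocyte markers were lower in SAN as well, with a median of -1.18. Relative to their mean, with the limit given for it above, RYR2 was higher in SAN by 0.81 without overlap and SLC8A1 by 0.48 with overlap. PLN was lower by 0.22 with overlap. The RYR2 call was lost without SAN vehicle replicate 1, 2 or 3 or atria vehicle replicate 1 or 2 (adjusted p 0.0564 to 0.091). It was also lost after quantile normalization (adjusted p = 0.0544). ATP2A2 differed by -0.38 (adjusted p = 0.0657) and ITPR3 by 0.56 (adjusted p = 0.0606), and without SAN vehicle replicate 4 both were called (-0.54, adjusted p = 0.00663, and 0.72, adjusted p = 0.0209). The same held without atria vehicle replicate 3 for ATP2A2 (-0.46, adjusted p = 0.0416) and without atria vehicle replicate 2 for ITPR3 (0.73, adjusted p = 0.0191). With CN03, 4 of 10 were called, where 38% of all genes were called. ITPR1 remained higher in SAN (0.43, adjusted p = 0.00279) and PLN lower (-2.19, adjusted p = 3.78e-09). RYR2 (-0.48, adjusted p = 0.039) and CASQ2 (-0.58, adjusted p = 0.0227) were lower too. So were 10 of the 11 cardiomyocyte markers, with a median of -1.24, and relative to their mean RYR2 and CASQ2 were higher in SAN by 0.96 and 0.86 and PLN lower by 0.75, each without overlap. At t0 the same measure gave 1.00 for RYR2, 1.16 for ATP2A2, 0.96 for CASQ2 and 1.23 for TRDN, all higher in SAN without overlap. It also gave 2.21 for RYR3, 2.05 for ITPR1, 1.43 for ITPR2 and 1.61 for ITPR3, again without overlap. The marker mean itself was 8.73 in fresh SAN and 10.07 in fresh atria. A gene at equal levels in both tissues is thus higher in SAN by this measure. Without it, the t0 differences were -0.35 for RYR2, -0.18 for ATP2A2, -0.39 for CASQ2 and -0.12 for TRDN, none called. The share of all genes without overlap on this measure was not computed. The calls of RYR2 and CASQ2 between the tissues with CN03 were lost without replicate 1 or 4 of either CN03 group. That of RYR2 was also lost without atria CN03 replicate 2. Over these fits the adjusted p was 0.0592 to 0.134. The RYR2 call with CN03 was lost too after quantile normalization (adjusted p = 0.0986), after median centring (0.0548) and without the mean-variance trend (0.0534).

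Because several of these proteins act in pairs, the difference of their log2 values was taken within each library. The mean of PLN relative to ATP2A2 was higher after culture, and higher again with CN03, in both tissues. It was -6.28 ± 0.33 (SD, n = 4) in fresh SAN, -3.64 ± 0.36 with vehicle and -3.23 ± 0.16 with CN03, and -3.97 ± 0.53, -2.48 ± 0.17 and -1.38 ± 0.21 in atria. The libraries of vehicle and CN03 overlapped in SAN, where the highest vehicle library was -3.22 and the lowest CN03 library -3.40, and they did not in atria. SLC8A1 relative to ATP2A2 was lowest with vehicle and went from -3.45 ± 0.11 to -1.61 ± 0.23 with CN03 in SAN and from -2.99 ± 0.17 to -2.06 ± 0.15 in atria, without overlap. CASQ2 relative to RYR2 gave -0.91 ± 0.21, -0.91 ± 0.10 and -0.86 ± 0.10 over the SAN groups and -0.87 ± 0.22, -1.32 ± 0.30 and -0.76 ± 0.13 over the atrial groups. ITPR3 relative to RYR2 went from -3.56 ± 0.73 to -0.44 ± 0.24 with CN03 in SAN and from -4.62 ± 0.54 to -0.76 ± 0.61 in atria. These differences follow from the values above and were not tested. As gene lengths and the unit cancel only between groups, they show relative change and not which transcript was more abundant.

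**Figure D3:**
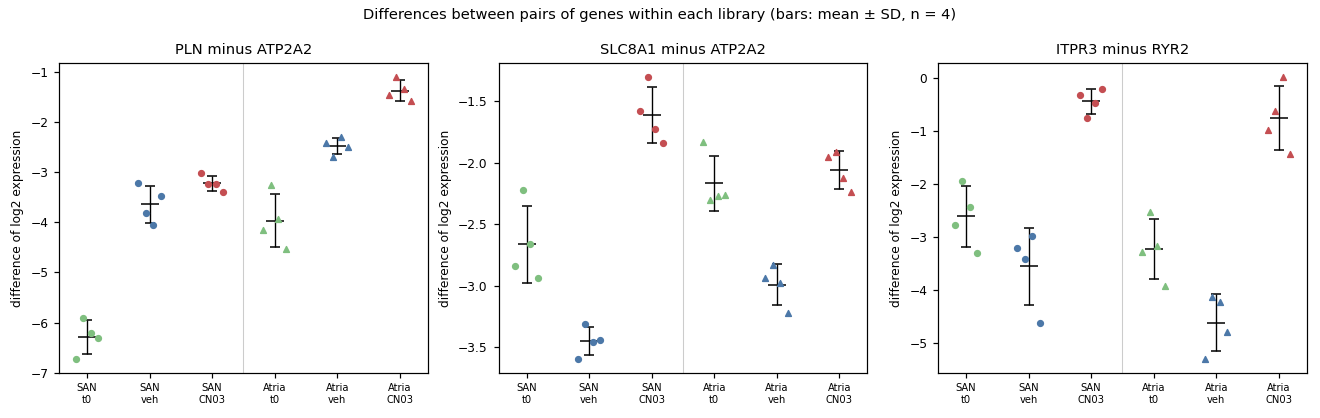
Difference of log2 expression between 2 genes in each library, by group, with the mean and SD of 4 libraries. PLN relative to ATP2A2 stood at -6.28 in fresh SAN and at -1.38 in CN03-treated atria, and SLC8A1 and ITPR3 were lowest relative to ATP2A2 and RYR2 in the vehicle groups.

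Markers of other and of the same cell type moved with CN03 as well. Of 13 cardiomyocyte markers fixed for this check, 11 were in the table, and none was near the lowest value in any group. With CN03, 8 of the 11 were lower in SAN and none higher, while 6 were lower and 1 higher in atria. Their summed level on the log2 scale was 13.19 to 13.78 with vehicle and 12.79 to 13.06 with CN03 in SAN, and 14.54 to 14.77 and 13.92 to 14.49 in atria. The single markers moved unequally. The mean of LDB3 went from 6.59 with vehicle to 4.77 with CN03 in SAN and from 8.02 to 6.12 in atria. That of TTN went from 8.69 to 9.12 and from 9.49 to 9.79. ATP2A2 went from 10.76 to 9.51 and from 11.14 to 9.85, a smaller fall than that of LDB3. The authors report sarcomere terms among genes raised by CN03. Whether these markers respond to CN03 apart from cell number was not tested. Relative to the mean of these markers in the same library, ATP2A2 was lower with CN03, by 0.54 in SAN and 0.70 in atria without overlap. RYR2 was lower by 0.29 with overlap in SAN and by 0.44 without in atria. CASQ2 gave -0.24 and 0.12 with overlap in both, and PLN gave -0.12 with overlap in SAN and 0.40 without in atria. Relative to the markers SLC8A1 was higher by 1.30 in SAN without overlap and by 0.24 in atria with overlap, TRDN gave -0.60 and 0.22 with overlap in both, and RYR3 gave 0.77 with overlap in SAN and 2.03 without in atria. ITPR3 was higher by 2.83 and 3.42 without overlap. ITPR1 gave 0.79 and 0.88 without overlap, and ITPR2 gave 0.86 without overlap in SAN and 0.69 with overlap in atria. The marker mean itself was 9.05 with vehicle and 8.33 with CN03 in SAN, and 10.37 and 9.77 in atria. A gene with no change thus reads as higher here. Plain SAN changes were 0.05 for RYR3, 0.07 for ITPR1 and 0.14 for ITPR2, none called. In atria RYR3 (1.43) and ITPR1 (0.28) were called and ITPR2 (0.09) was not. The share of all genes without overlap was not computed here.

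Of 7 smooth muscle and pericyte markers, 6 were in the table, and with CN03 5 were higher and 1 lower in SAN, and 4 higher and 1 lower in atria. Their summed level went from 7.75 to 8.31 with vehicle to 10.79 to 11.26 with CN03 in SAN, and from 7.31 to 7.86 to 10.51 to 11.21 in atria. Among them, ACTA2 and TAGLN, which encode smooth muscle actin and transgelin, had means of 10.47 and 8.72 in SAN with CN03. The next highest was CSPG4 at 6.17, up from 4.56 with vehicle. ACTA2 is also among the RhoA targets by which the authors checked the action of CN03. For MYH11 the SAN mean was 3.63 after CN03, between 3.24 (vehicle) and 4.01 (fresh). Its atrial mean after CN03, 3.95, exceeded both vehicle (2.91) and fresh atria (3.54). RGS5, a pericyte marker, fell to 2.39 from 5.83 in SAN. Whether the higher summed level reflects more smooth muscle cells or pericytes was not tested. All 8 macrophage markers were in the table, and 7 of them fell in each tissue, with a summed level in SAN of 6.81 to 7.06 with vehicle and 3.36 to 3.91 with CN03. C1QA and C1QC, both complement genes, reached the lowest value of the table, -5.87, in CN03-treated libraries. Of 4 epicardial markers in the table, 3 were lower in SAN and all 4 in atria, and of 9 fibroblast markers 6 and 5 were lower and 1 higher in each tissue. Of 9 endothelial markers, 5 were lower in SAN and 7 higher in atria. No erythroid marker was called in SAN and all 5 in the table were lower in atria, and of 5 neural markers 1 was higher and 2 lower in each tissue. Of 7 pacemaker markers, 1 was higher and 6 lower in SAN and 3 higher and 3 lower in atria, and of 6 atrial markers 4 were higher and 2 lower in SAN and 3 higher and 1 lower in atria. The part of these cell types in the results for RYR3 and ITPR3 was not tested.

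Within groups, the deviations of single libraries from their group mean were shared by some of the genes. Over the 24 libraries RYR2 and ATP2A2 deviated together (r = 0.89), as did SLC8A1 and CASQ2 (r = 0.81) and RYR2 and CASQ2 (r = 0.79). TRDN and ITPR3 deviated in opposite directions (r = -0.81). Replicate 4 had a large part in this, with the highest TRDN in 5 of the 6 groups and the lowest ITPR3 in 4. It also had the lowest ITPR2 in 5 groups. The mean of the cardiomyocyte markers correlated with ATP2A2 (r = 0.87), RYR2 (0.86) and CASQ2 (0.79), with PLN at 0.34 and with ITPR3 at -0.65. SAN vehicle replicate 4 showed this together, with the highest RYR2, ATP2A2, PLN, SLC8A1, CASQ2 and TRDN and the lowest ITPR3 of its group, and the highest cardiomyocyte marker mean, 9.47 against 8.77 to 9.13. Leaving out that library kept all 7 calls of CN03 against vehicle in SAN. These correlations are descriptions, since the points share libraries and scaling.

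**Figure D4:**
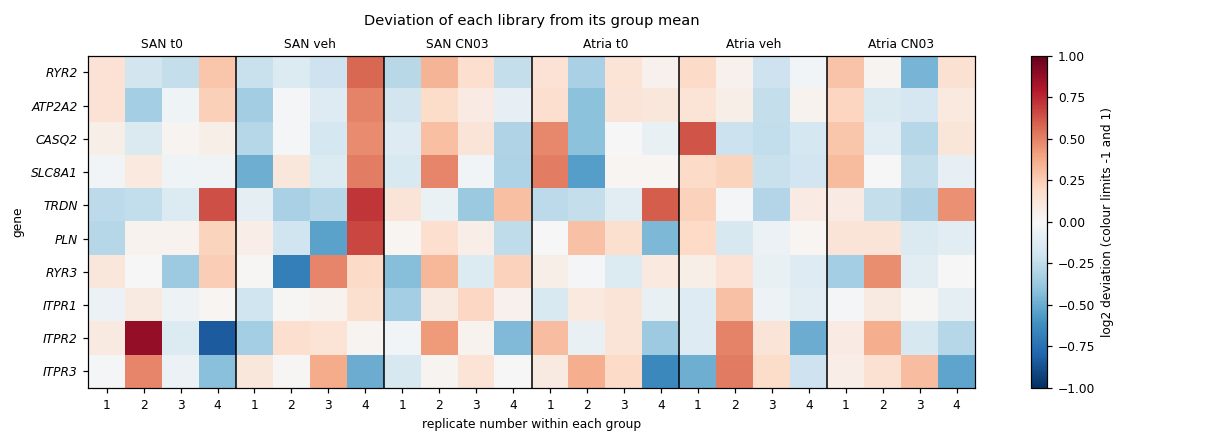
Deviation of each library from the mean of its group on the log2 scale, for the 10 genes (rows) and 24 libraries (columns). SAN vehicle replicate 4 was high in RYR2, ATP2A2, CASQ2, SLC8A1, TRDN and PLN, and TRDN and ITPR3 took opposite signs in several pools numbered 4.

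Genes of the same pathway were read from a list of 73 partner genes, 60 of which were in the table. With CN03, 43 of the 60 were called in SAN, 18 higher and 25 lower, and 39 in atria, 20 higher and 19 lower, near the shares of all genes given above. The median log2 fold change of the 60 was -0.16 and -0.04. Of 12 genes that the list groups with the ryanodine receptor, 8 were lower in each tissue, and 1 was higher in SAN and 2 in atria. Of all genes, 37.8% were lower and 33.4% higher in SAN, and 36.8% and 35.7% in atria. Whether the 12 differ from these shares was not tested, and the list was chosen with earlier results known. The grouping is that of the list and does not mean that each product binds the receptor. SRL, the luminal protein sarcalumenin, fell by 3.06 in SAN (SE 0.175, adjusted p = 4.29e-13) and by 2.85 in atria (adjusted p = 7.98e-13). FKBP1B, which binds and steadies the closed ryanodine receptor, fell by 0.65 in SAN (adjusted p = 0.000387) and by 1.48 in atria (adjusted p = 3.93e-09). JPH2, a junctophilin that holds the store close to the plasma membrane, fell by 1.88 in atria (adjusted p = 0.000714), though its mean level was only 1.21 with vehicle and -0.67 with CN03. In SAN its difference was -0.86 (adjusted p = 0.093). AKAP6, an anchor of protein kinase A near the ryanodine receptor, went the other way and rose by 1.95 in SAN (adjusted p = 6.74e-07) and by 1.44 in atria (adjusted p = 3.88e-05).

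SLN encodes sarcolipin, another small inhibitor of the SERCA pump. It was higher in fresh SAN than in fresh atria by 3.43 (SE 0.396, adjusted p = 3.11e-07), while PLN was lower there by 2.49. With CN03 it fell by 2.76 in SAN (adjusted p = 1.43e-06) and by 4.12 in atria (adjusted p = 2.24e-09), where its mean went from 5.57 ± 0.13 with vehicle to 1.46 ± 0.97 (SD, n = 4). In atria vehicle culture raised it by 1.81 (adjusted p = 0.000418).

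On the side of IP3 signaling, HOMER1, a scaffold that binds IP3 receptors, rose with CN03 by 1.79 in SAN (adjusted p = 4.35e-12) and by 2.34 in atria (adjusted p = 2.41e-14). PLCB2, a phospholipase C, fell by 1.40 in SAN (adjusted p = 1.46e-05). Of the 11 partners of the IP3 receptors in the table, 3 were higher and 7 lower in SAN, and 4 higher and 5 lower in atria. Of all genes, 33.4% were higher and 37.8% lower in SAN, and 35.7% and 36.8% in atria, and a difference from these shares was not tested. STIM2, a sensor of store calcium that opens plasma membrane channels, rose by 1.84 in SAN (adjusted p = 2.42e-12) and by 2.25 in atria (adjusted p = 4.00e-14). CALU, a calcium-binding protein of the reticulum lumen, rose by 1.34 in SAN (adjusted p = 2.40e-10) and by 1.85 in atria (adjusted p = 6.04e-13).

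**Figure D5:**
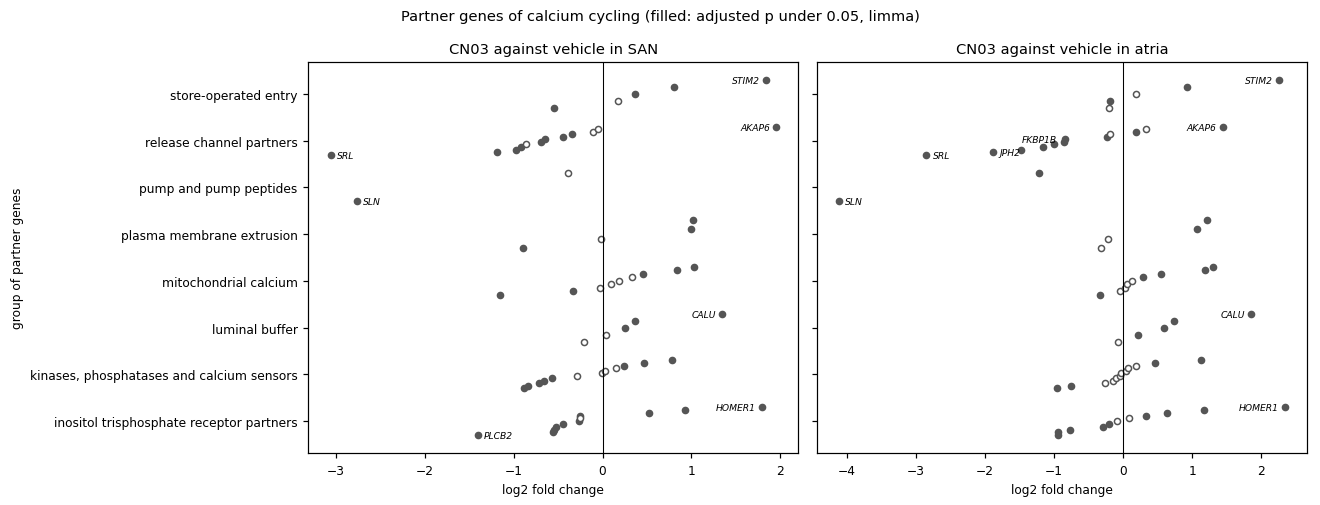
Log2 fold change with CN03 of 60 partner genes by role, in SAN (left) and atria (right), each point a gene, filled for an adjusted p under 0.05. SRL and SLN lay farthest to the left at -3.06 and -2.76 in SAN and -2.85 and -4.12 in atria, and STIM2, HOMER1 and AKAP6 lay to the right.

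In vehicle culture, 27 of the 60 partners (45%) were called in SAN, 12 higher, beside 51.4% of all genes, and 42 (70%) in atria, 21 higher, beside 59% of all genes. PRKACA, a catalytic subunit of protein kinase A, rose by 1.33 in SAN (adjusted p = 0.00132) and by 2.13 in atria (adjusted p = 4.41e-06) from group means below 0. TMEM38A, a potassium channel of the sarcoplasmic reticulum, rose by 0.97 in SAN (adjusted p = 5.11e-07), and SLC8B1, the mitochondrial sodium-calcium exchanger, by 1.02 (adjusted p = 4.20e-06). JPH2 rose by 2.03 in atria (adjusted p = 0.000508) and JPH3, another junctophilin, fell by 1.59 (adjusted p = 6.82e-09). AKAP6 fell by 1.57 in SAN (adjusted p = 3.54e-05) and by 1.87 in atria (adjusted p = 2.17e-06), and MCUB, a subunit of the mitochondrial calcium uniporter, by 1.35 (adjusted p = 1.14e-07) and 1.89 (adjusted p = 3.10e-10). PLCE1, a phospholipase C, fell by 1.14 in SAN (adjusted p = 6.23e-08).

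At t0, 28 of the 60 partners (46.7%) differed between the tissues, 15 higher and 13 lower in SAN, beside 35.9% of all genes, 18.7% higher and 17.1% lower. Besides SLN, these included ATP2B2, a plasma membrane calcium pump (1.06, adjusted p = 1.36e-05), and SLC8B1 (1.00, adjusted p = 8.98e-06). CAMK2A, a calcium-calmodulin kinase subunit, was lower in SAN by 2.35 (adjusted p = 5.38e-09), AKAP6 by 1.27 (adjusted p = 0.000586) and FKBP1B by 0.84 (adjusted p = 8.47e-05).

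The genes whose pattern was most like each of the 10 were found by the root mean square distance of gene-centred log2 values over the 24 libraries. The nearest of all genes to RYR2 was ATP2A2 at 0.20, against a spread of 0.58 in RYR2 itself, followed by MCCC1 and ESRRG at 0.21. The nearest to ATP2A2 were THNSL1 at 0.16, HABP4 at 0.20 and RYR2. RYR2 was also the third nearest gene to CASQ2, at 0.24, after MGST3 and PIGF. For ITPR3 they were MYH9 at 0.25, TES at 0.28 and EFNB2 at 0.29, against its own spread of 1.07. PLN had no such close neighbour, with DRAXIN at 0.59, ALDOC at 0.70 and GSTT1 at 0.72 against its spread of 1.52. The nearest genes to TRDN were CALML4, MAP9 and DHRS4 (0.27 to 0.28), to SLC8A1 SPTAN1, ANK3 and MKRN2 (0.25 to 0.28), and to RYR3 SEMA6A and ARHGAP21 (0.34). ITPR1 lay nearest to YPEL1, LNX2 and ACACA (0.17 to 0.18) and ITPR2 to XRN1, MED1 and KIF1B (0.24), 2 genes of low spread at which a small distance is more easily reached.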

How the data were processed

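Stranded, ribosomal RNA-depleted total RNA of 24 libraries was sequenced by the authors as paired-end reads. According to the submitters' processing notes the tools were FastQC, kallisto, edgeR and limma, with build GRCg7b. The authors deposited filtered and normalized log2 expression values per gene symbol, and the normalization and depth are not given in the sources used here. All 10 genes matched NCBI RefSeq by symbol, from which the GRCg7b coordinates come. The row with no symbol (6.58 to 17.9% of the linear sum) was left out.

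A mean per group was fitted to all 24 libraries with limma 3.58.1 in R 4.3.3 (18 residual degrees of freedom, mean-variance trend, Benjamini-Hochberg adjustment over 12422 genes), after the scripts were tested on simulated data. Figures and tables used Python 3.11.15. p-values measure the spread between pools. The genes, partner and marker lists were chosen with earlier results of these data known. Named were all 10 genes, the 3 partners most raised and the 3 most lowered among those called in each of 5 comparisons, the 3 nearest genes to each and label genes. A gene that this rule names is not reported here. A partner named in one comparison was also given in others, and marker genes named singly were chosen after their values were seen.

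Whether equal replicate numbers pair the pools was checked from deviations from group means over 10349 genes with a mean log2 above 2. Every pair of equal numbers had r over 0.1 in 2 of 9 pairs of groups, vehicle and CN03 in atria (0.246 to 0.275) and SAN and atria at t0 (0.112 to 0.496). There the numbers were taken to pair the pools. The calls given above still come from the fit without a replicate block, and the blocked fit is an alternative to it.

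Alternatives were a replicate block, only the groups compared, a pseudocount of 1, a filter on low values, quantile normalization, median centring, no variance trend, and leaving out each library. Leaving out replicate 4 of every group was added after the data were seen.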

Additional observations from a re-analysis of the deposited data

Results flagged for a closer look

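Of 60 combinations of a gene and a group, 6 held a library far from the other 3 by Dixon's criterion, which chance gives in about 1 in 20. RYR2 was 8.01 in SAN vehicle replicate 4, against 7.22 to 7.30 in the others. ATP2A2 was 10.23 in atria t0 replicate 2, against 10.76 to 10.82. In SAN t0 replicate 2, SLC8A1 was 7.90 against 7.76 to 7.77, and CASQ2 was 6.42 against 6.59 to 6.63. CASQ2 was 7.25 in atria vehicle replicate 1, against 6.38 to 6.45. TRDN was 5.79 in SAN t0 replicate 4, against 4.88 to 5.01. The row with no gene symbol took 17.9% of the linear sum in atria CN03 replicate 2, against 7.13 to 8.39% in the other atrial CN03 libraries.

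A difference between the tissues in the response to CN03 passed the test for RYR3 (-1.38, SAN minus atria), SLC8A1 (0.94) and TRDN (-0.94, lost under other scalings and on leaving out any 1 of 8 libraries), and a difference in the response to culture passed it for PLN (0.96).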

How the results depend on the processing

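None of the 110 member fold changes changed direction where it was called. Under the 7 settings that keep all libraries, 737 of 770 values kept their status, called or not, 16 lost a call and 17 gained one. On leaving out 1 library, 974 of 1040 kept their status, 52 lost a call and 14 gained one. The values that kept their status include those called in neither fit, so these are not shares of the calls. A sign changed in 56 of all 1920 values, none of them called. The number of the 10 genes called in vehicle against t0 in SAN was 5, became 3 with no mean-variance trend, and ranged from 3 to 5 on leaving out 1 library. For SAN against atria with vehicle it was 5, and became 9 with the replicate block and 8 without replicate 4 of every group (4 to 7 on leaving out 1 library). For SAN against atria with CN03 it was 4, with 3 to 6 under the other settings and 2 to 4 on leaving out 1 library. ATP2A2 (-0.34, adjusted p = 0.102) and TRDN (-0.53, adjusted p = 0.0831) were not called there. With only the groups compared both were called (adjusted p = 0.0423 and 0.0407), and the replicate block called TRDN (0.00302). The cause of these changes in the calls was not tested. Without atria CN03 replicate 2, 4 of the 6 atrial calls with CN03 remained. With the replicate block, calls numbered 7 for CN03 against vehicle in SAN and 7 in atria, 5 for culture in each tissue, 4 at t0 and 5 with CN03. The block also called ITPR3 in the difference in CN03 response (adjusted p = 0.0179) and ITPR2 for culture in SAN (0.00794), and gave 0.000722 for TRDN in the difference in CN03 response. In 7 of 9 pairs of groups the criterion for pairing by number was not met, though in 4 of them 3 of 4 libraries correlated best with their own number, as a hint from the data and not the design. In the other 2 pairs all 4 did. Quantile normalization moved the share of higher genes among calls past 2-fold with CN03 in SAN from 37.4 to 49.0%, between SAN and atria from 70.5 to 54.3% at t0 and from 69.5 to 53.3% with vehicle, and that among all calls for the difference in CN03 response from 43.2 to 53.7%, while the median of all genes shifted by at most 0.08.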
